A study of Arabidopsis thaliana with 19 samples.

Results

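Polyploid seedlings of Arabidopsis thaliana, the thale cress, were compared as a whole with diploid seedlings. The comparison used all 19 seedlings of the series: 15 polyploids in 3 groups and 4 diploids. For each of 22746 probe sets the mean of the 3 polyploid group means was set against the diploid mean, and the result was searched for genes that changed alike in all 3 groups. Each sample was the RNA of a single seedling of 2 weeks on 1 Affymetrix ATH1 array. Diploids (2x, 4 seedlings) carry 2 genome copies. Triploids with a maternal excess (3x(m), 5 seedlings) and triploids with a paternal excess (3x(p), 5 seedlings) carry 3, and differ in the parent that gave the larger share. Tetraploids (4x, 5 seedlings) carry 4. The labels name no line, allele or treatment, and all seedlings grew on Murashige and Skoog medium, so the groups differ by ploidy and parental dose as far as the labels say.

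Autopolyploids carry additional copies of the genome of their own species, in contrast to allopolyploids, which combine the genomes of different species. An added genome copy raises the dose of every nuclear gene together, and cells of polyploid plants are often larger, while organelle genomes are inherited and copied separately. A gene whose transcript share differs from that of diploids in several ploidies at once has changed relative to the rest of the transcriptome, since every array had been brought to the same distribution.

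Values are log2 expression values, differences are polyploid minus diploid on that scale with the standard error (SE) from limma, and group levels are means ± SD. Calls are probe sets with an adjusted p under 0.05 over all 22746. No array duplicated another, the closest pair differing by a root mean square of 0.231. Transcripts of nuclear photosynthesis genes such as RCA, the activase of Rubisco (13.82 ± 0.03, SD, n = 4 in diploids), and of PYK10, a root glucosidase (12.36 ± 0.10) lay near the top of the measured range, which ended at 14.16. No seed storage marker could be checked (0 of 4 had a single-gene probe set). Seedling 3x(m) 4 stood apart: its chromosome 4 genes were raised by a median of 0.125 against at most 0.00167 in any other seedling, its array had the lowest weight (0.284), and its medians for the cold (−1.78), iron (−2.67) and root (−1.29) gene lists were the lowest of its group. Counts without it are given below.

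Polyploid seedlings shared a set of raised transcripts that was larger than the set of lowered ones. Of the 22746 probe sets 176 were called, 0.774% of those tested. Higher in polyploids were 123 (0.541%) and lower 53 (0.233%), with median differences of 0.79 and −0.46 against a median of −0.00298 over all probe sets. A rise of at least 2-fold was reached by 43 of the raised probe sets and a fall of that size by 6 of the lowered ones. With array weights the split was 266 higher to 263 lower. At an unadjusted p under 0.05 there were 2571 probe sets. Without seedling 3x(m) 4 the calls were 247, 166 higher and 81 lower, and 175 of the 176 were among them. The lowered set rested on the 4 diploid seedlings more than the raised set did: leaving out 2x 1, 2x 3 or 2x 4 left 53, 63 and 85 higher calls but 5, 17 and 7 lower ones, and leaving out 2x 2 left 33 lower ones. The lower count was also 34 without 3x(m) 2 or 4x 1, 30 without 4x 4 and 33 without 4x 5. In total 58 calls were left without 2x 1, 80 without 2x 3 and 92 without 2x 4.

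**Figure D1:**
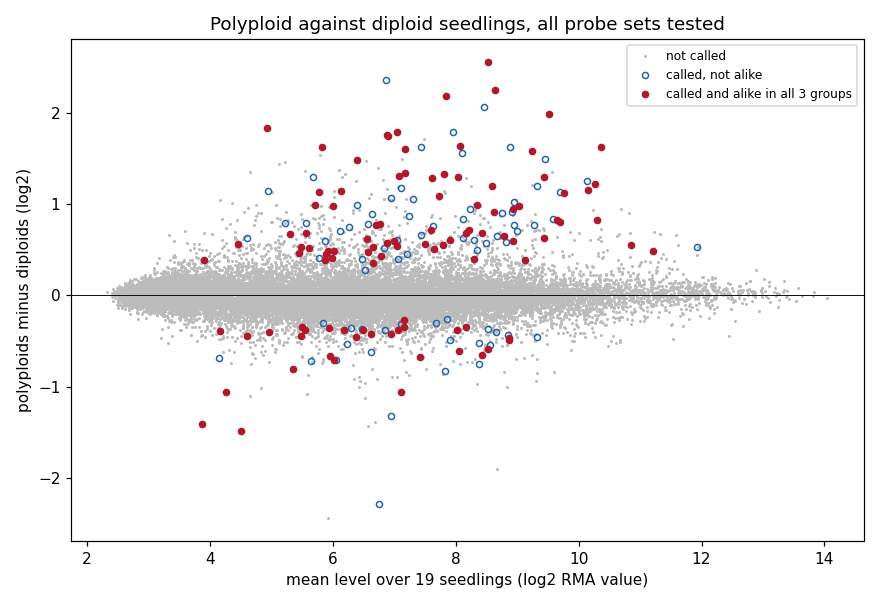
Difference between polyploids and diploids (log2, vertical) against the mean level over 19 seedlings (log2 RMA value, horizontal) for each of the 22746 probe sets tested. Called probe sets are coloured, filled where the change was alike in all 3 polyploid groups; most of the points far from 0 lie above the line, 43 called rises and 6 called falls reaching 2-fold.

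A change was counted as alike when the probe set was called, its differences from diploids in 3x(m), 3x(p) and 4x had the same sign, and the smallest of them was at least 0.5 of the largest. These differences share the diploid arrays, so their likeness is a description and no test. By this rule 103 probe sets changed alike (0.453% of those tested), 73 up and 30 down, and 58 of them carry 1 annotated gene. Without 3x(m) 4 the number was 137, without 2x 1 it was 32, without 2x 3 53 and without 2x 4 62. Just inside the limit were AT4G29780 and AT5G08520, both with a ratio of 0.508, and 266072_at (0.502). Just outside were AT1G21830 (262488_at, 0.496), AT5G24890 (0.494) and 259537_at (0.494). AT1G21830 shows how narrow the line is, because its other probe set (0.44 ± 0.0842, adjusted p = 0.0169) was alike with a ratio of 0.67 while this one (0.61 ± 0.138, adjusted p = 0.0438) was not.

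The rises alike in all 3 groups were led by AT3G15450, AT2G20670 and AT5G19120. AT3G15450 encodes an aluminium-induced-like protein whose transcript accumulates in darkness and under sugar shortage. It read 5.57, 6.83, 5.78 and 7.85 in diploids 1 to 4, and in the 15 polyploids it ran from 7.51 over a median of 9.16 to 10.68. Diploid 4 lay above seedlings 3x(m) 1 and 3x(m) 5, and all other polyploids lay above every diploid. The difference was 2.56 ± 0.348 (limma, adjusted p = 0.000763), a 5.91-fold rise, made up of 1.78 in 3x(m), 3.38 in 3x(p) and 2.53 in 4x.

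AT2G20670 belongs to a family of plant proteins with the domain DUF506, of unknown function. Its values were 6.63, 6.84, 6.35 and 7.61 in the diploids and ran from 8.25 over 9.30 to 9.88 in the polyploids. The groups did not overlap, and the difference was 2.25 ± 0.246 (limma, adjusted p = 7.31e-05). The second member of that family among the leading rises, AT3G07350, read 6.96, 8.08, 8.14 and 8.77 in the diploids and from 8.84 over 9.43 to 10.37 in the polyploids. These did not overlap either, by a margin that is small against the spread of the diploids, and the difference was 1.58 ± 0.254 (adjusted p = 0.00359).

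AT5G19120, of the aspartyl protease family, read 7.56, 8.31, 6.88 and 9.08 in the diploids against 9.14 over 9.98 to 10.59 in the polyploids. Diploid 4 was the highest of its group and lay just below the lowest polyploid. The difference was 1.99 ± 0.285 (limma, adjusted p = 0.00124), and it was similar in the groups at 1.70, 2.14 and 2.11 for 3x(m), 3x(p) and 4x.

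Rises without overlap of the groups were also seen in 4 further genes. AT1G23710, a protein with the domain DUF1645, had 4.59, 4.90, 5.26 and 4.81 in diploids and 5.54 over 6.05 to 6.38 in polyploids, a difference of 1.13 ± 0.106 (limma, adjusted p = 2.88e-05). AT5G60680, of a family with the domain DUF584 that includes senescence-associated proteins, had 8.52, 9.02, 9.26 and 9.51 against 9.87 over 10.62 to 11.28, a difference of 1.63 ± 0.165 (adjusted p = 2.97e-05). AT2G27830 had 5.21, 6.23, 6.04 and 6.16 against 6.97 over 7.46 to 8.22, a difference of 1.61 ± 0.164 (adjusted p = 2.97e-05). In all of these every polyploid lay above every diploid. AT4G05070, annotated as a wound-responsive family protein, was likewise separated, with 8.49, 9.01, 8.86 and 9.17 against 9.61 over 9.97 to 10.49, and rose by 1.12 ± 0.132 (adjusted p = 0.000213).

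**Figure D2:**
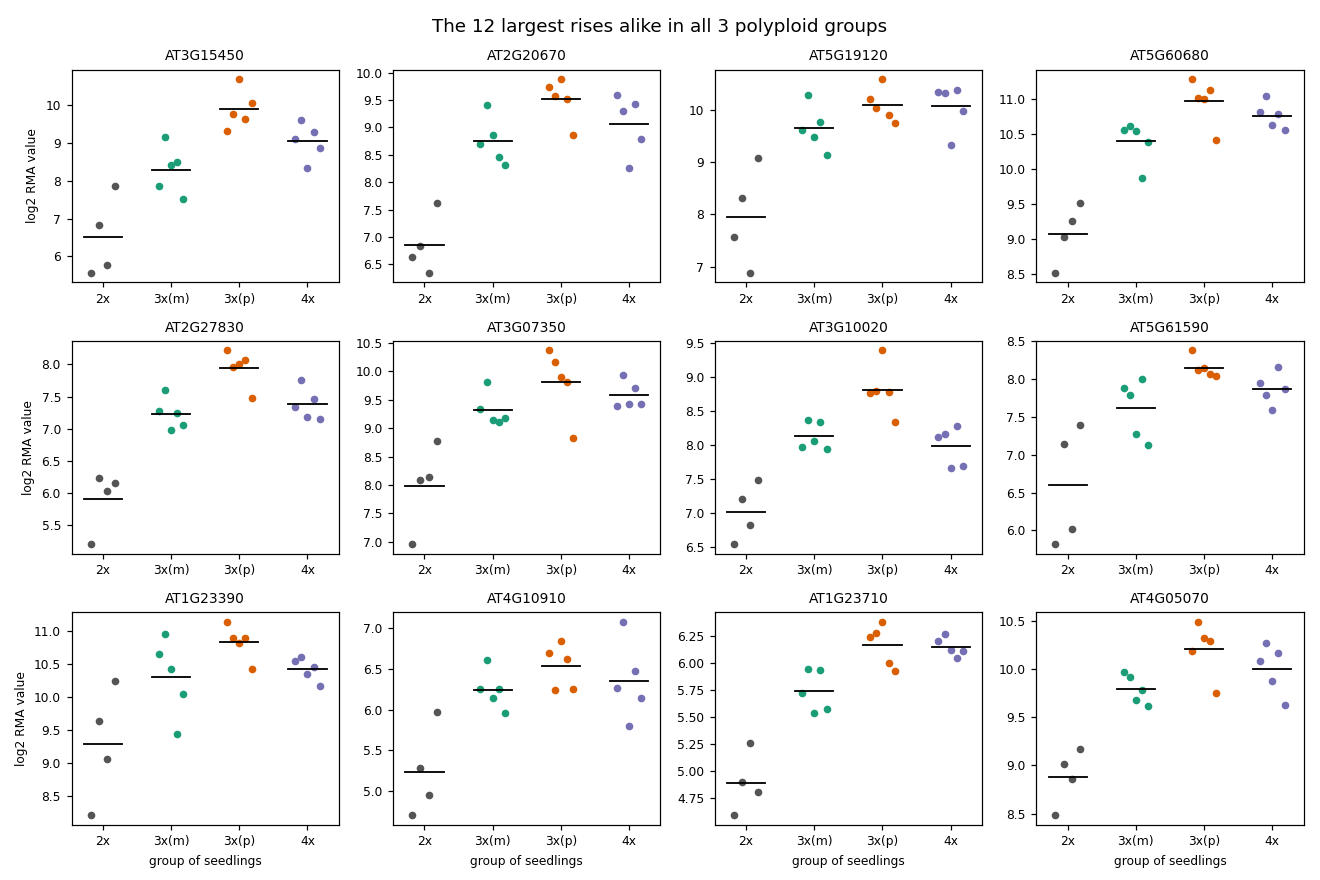
Log2 RMA value (vertical) of each seedling by group (horizontal) for the 12 named genes with the largest rises alike in all 3 polyploid groups; each point is a seedling and each bar the group mean. The diploid mean is the lowest bar in every panel, but in AT3G15450, AT5G61590, AT1G23390 and AT4G10910 the highest diploid reaches into the polyploid range.

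Some of the genes above and 3 unnamed probe sets form a core that also held in each group on its own. Compared singly with diploids, 8 probe sets were called in 3x(m), 262 in 3x(p) and 218 in 4x, with the same 4 diploid arrays in each, and 8 were called in all 3 comparisons, all of them raised. They were AT2G20670, AT5G60680, AT2G27830, AT1G23710, AT4G05070 and, without a gene in the annotation used here, 267139_s_at, 264854_at and 254919_at. The leading rises AT3G15450, AT5G19120 and AT3G07350 were not among them. In 3x(m) on its own these 3 genes were not called (limma, adjusted p = 0.327, 0.102 and 0.285). The probe set 267139_s_at had the smallest adjusted p of the core: its values were 3.47, 3.25, 3.27 and 3.93 in diploids and 4.73 over 5.29 to 5.79 in polyploids, a difference of 1.84 ± 0.157 (limma, adjusted p = 1.43e-05). The other unnamed probe sets with the largest alike rises were 260287_at (2.18 ± 0.303, adjusted p = 0.0009) and 267028_at (1.79 ± 0.267, adjusted p = 0.00178), which were not called in 3x(m) on its own. Conversely, 3 probe sets were called in the pooled comparison and in none of the single ones, 1 higher and 2 lower.

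Among the remaining leading rises AT3G10020, a gene of unknown function induced by low oxygen, read 6.55, 7.22, 6.83 and 7.49 in diploids and 7.67 over 8.28 to 9.39 in polyploids. The groups did not overlap, and the difference of 1.29 ± 0.169 (limma, adjusted p = 0.000564) was 1.12, 1.80 and 0.97 in 3x(m), 3x(p) and 4x. AT5G61590, which encodes the transcription factor DEWAX, a repressor of cuticular wax genes, rose by 1.28 ± 0.22 (adjusted p = 0.00663). Its diploids split, with 5.82 and 6.02 in diploids 1 and 3 and 7.14 and 7.39 in diploids 2 and 4, and the latter reached into the polyploid range of 7.12 to 8.38. AT1G23390, a Kelch-repeat F-box protein that targets chalcone synthase for degradation, rose by 1.23 ± 0.266 (adjusted p = 0.0361), and AT4G10910 by 1.15 ± 0.204 (adjusted p = 0.00987). In both the highest diploid lay inside the polyploid range. The calls of AT5G61590 and AT4G10910 ended without 2x 1 or 2x 3, and that of AT1G23390 in 9 of the 19 omissions, while the other 9 of the 12 named rises stayed called in all 19.

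The falls alike in all 3 groups were smaller than the rises. AT3G01260, of the galactose mutarotase-like family, had the largest named fall, −1.49 ± 0.337 (limma, adjusted p = 0.0438). It read 7.08, 4.99, 5.09 and 5.56 in diploids and 3.50 over 4.08 to 5.69 in polyploids, so that diploid 1 stood far above the others and the ranges overlapped. Its call ended in 15 of 19 omissions. AT2G23910, of the NAD(P)-binding Rossmann-fold family, had 5.61, 4.15, 5.26 and 5.38 in diploids against 3.49 over 3.96 to 4.49, a difference of −1.06 ± 0.19 (adjusted p = 0.00987). Here diploid 2 was low and lay within the polyploid range, and leaving out any of the other diploids ended the call.

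AT2G27420, a cysteine proteinase of the papain type, was the largest named fall without overlap. It had 8.12, 8.02, 7.77 and 7.86 in diploids and 6.06 over 6.91 to 7.75 in polyploids, with little spread among diploids and much among polyploids. The difference was −1.06 ± 0.241 (limma, adjusted p = 0.0453), and the call ended in 13 of 19 omissions. AT4G16563, of the aspartyl protease family like the raised AT5G19120, fell by 0.81 ± 0.168 (adjusted p = 0.0269). AT2G44940, a transcription factor of the ERF family, fell by 0.71 ± 0.148 (adjusted p = 0.0268), and AT5G02180, an amino acid transporter, by 0.66 ± 0.146 (adjusted p = 0.0386). The first of these lost its call without 2x 1, 2x 3 or 2x 4, the second without 2x 1, 2x 2 or 2x 3, and the third in 10 omissions.

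RST1, required for cuticular wax and embryo development, had 6.98, 6.88, 7.02 and 6.92 in diploids and 6.23 over 6.55 to 6.73 in polyploids. All 15 polyploids lay below all diploids, with a difference of −0.42 ± 0.081 (limma, adjusted p = 0.0169). AT2G20440, a Rab GTPase-activating protein of membrane traffic, was separated in the same way, with 6.52, 6.36, 6.53 and 6.49 against 5.82 over 6.09 to 6.33 and a difference of −0.38 ± 0.0746 (adjusted p = 0.0197). Both calls ended without 2x 1, 2x 3 or 2x 4. The other named falls were AT3G17130, an invertase or pectin methylesterase inhibitor (−0.46), AT1G65920, of the RCC1 family (−0.44), AT4G38120, with ARM repeats (−0.40), and AT5G66960, of the prolyl oligopeptidase family (−0.39), with adjusted p between 0.0211 and 0.0497. AT4G38120 has another probe set, 253026_at, at −0.12 ± 0.0875 (adjusted p = 0.679), and the calls of these 4 genes ended in 2, 13, 12 and 9 omissions. Of the 15 alike falls without a single gene, the largest were 245553_at (−1.41), 260058_at (−0.68) and 245152_at (−0.65), whose calls ended in 5, 2 and 1 of the omissions.

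**Figure D3:**
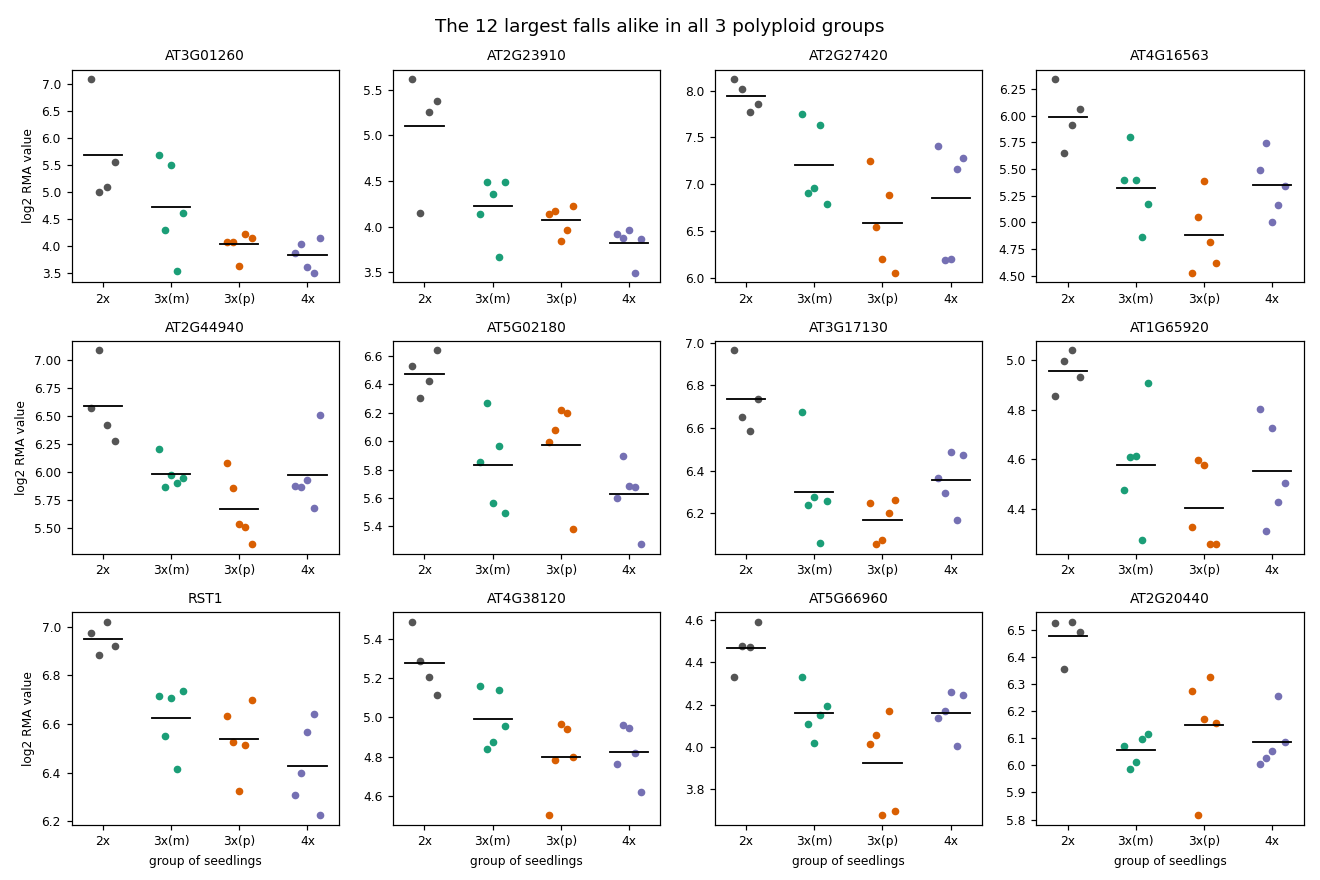
Log2 RMA value (vertical) of each seedling by group (horizontal) for the 12 named genes with the largest falls alike in all 3 polyploid groups; each point is a seedling and each bar the group mean. AT2G27420, AT5G02180, RST1, AT5G66960 and AT2G20440 show all polyploids below all diploids, whereas the ranges overlap in the other panels, among them AT3G01260 and AT2G23910.

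Without any model, all 15 polyploids lay above all 4 diploids in 65 probe sets (0.286% of those tested) and below them in 37 (0.163%). Of the called probe sets 49 raised and 17 lowered ones were separated in this way, and of those that changed alike 39 and 12. Without 3x(m) 4 the total of 102 was 143, and it was 228, 252 and 176 without 2x 2, 2x 3 and 2x 4. Separated values stay separated when a seedling is left out, so this count could only stay or rise. Some called genes with plain separation lie outside the named ones and were chosen here after their values were seen. AT1G25550 (0.70 ± 0.126, adjusted p = 0.00987) and AT1G68670 (0.50 ± 0.0864, adjusted p = 0.00782) encode related GARP-type repressors of the nitrate response, and both rose without overlap. AT3G46600, a GRAS transcription factor, rose by 1.09 ± 0.158 (adjusted p = 0.0014), and AT4G28240, like AT4G05070 a wound-responsive family protein, by 0.80 ± 0.139 (adjusted p = 0.0074). The EF-hand calcium-binding proteins AT3G10190 (0.99 ± 0.141, adjusted p = 0.00117) and AT2G41410 (0.63 ± 0.112, adjusted p = 0.00907) rose too, the second without overlap.

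The 3 polyploid groups did not change to the same extent. Among the 123 raised probe sets the mean of 3x(m) was the smallest of the groups in 100 (81.3%, against 44.8% of the 11158 probe sets with a positive pooled difference), and that of 3x(p) the largest in 88 (71.5%, against 36.5%). Median differences of the raised set from diploids were 0.55 in 3x(m), 1.00 in 3x(p) and 0.86 in 4x. Among the 53 lowered probe sets 3x(m) was again nearest to the diploids in 45 (84.9%, against 46.3% of 11588), and the medians were −0.33, −0.54 and −0.57. Seedling by seedling, the median of the raised set was 0.65, 0.75, 0.52, 0.56 and 0.38 in 3x(m) 1 to 5, 1.11, 1.01, 1.10, 1.00 and 0.83 in 3x(p) 1 to 5, and 0.97, 0.89, 0.69, 0.99 and 0.70 in 4x 1 to 5. The 3x(m) and 3x(p) seedlings did not overlap, 3x(m) overlapped with 4x, and seedling 3x(m) 4 lay within its group. The diploids were at −0.21, 0.09, −0.05 and 0.17. These medians are of probe sets chosen by the same contrast and are given as a description.

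The test of the polyploid groups against each other does not use the diploid mean. It called 11 probe sets (0.0484%), and 1617 reached p under 0.05 before adjustment. Leaving out 3x(m) 4 gave 16 calls. There were 6 without 3x(m) 1, 7 without 3x(m) 3, 4x 4 or 4x 5, 20 without 3x(m) 5 and 17 without 3x(p) 5. Of the 11 calls, 7 were also called against diploids and 0 had changed alike. The rule for alike leaves out probe sets with the most unequal group differences, so this 0 was largely built in. Even so, 34 of the 103 alike probe sets (33.0%) reached an unadjusted p under 0.05 in the F-test, against 7.11% of all probe sets. The named genes called both ways were AT5G11090, annotated as a serine-rich protein, and AT1G05575, a small protein of unknown function on the low-oxygen list. AT5G11090 was at 7.94 ± 0.18 in 3x(m), close to the diploids (7.81 ± 0.12, SD, n = 4), but at 8.53 ± 0.17 in 3x(p) and 8.80 ± 0.19 in 4x (SD, n = 5 each; limma F-test, adjusted p = 0.00394). Its pooled difference was 0.61 ± 0.0954 (adjusted p = 0.00272). AT1G05575 was highest in 3x(p), at 5.28 ± 0.15 against 4.30 ± 0.27 in 3x(m), 4.61 ± 0.33 in 4x and 4.10 ± 0.27 in diploids (F-test, adjusted p = 0.0455), with a pooled difference of 0.63 ± 0.139 (adjusted p = 0.04) whose call ended in 12 omissions.

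Of the genes that rose but not alike, SIS, a serine-rich protein named for its induction by salt, was at 7.60 ± 0.35 in diploids and rose by 1.62 ± 0.253 (limma, adjusted p = 0.00272), with 0.97 in 3x(m), 2.12 in 3x(p) and 1.77 in 4x. AT5G25280, also annotated as serine-rich, read 8.49, 9.35, 9.13 and 9.58 in diploids and rose by 1.26 ± 0.152 (adjusted p = 0.000248), with 0.71, 1.32 and 1.75. Its tetraploids, from 10.74 to 11.00, lay above all triploids, and its F-test gave an adjusted p = 0.0574. The other named rises of unequal size were AT3G56880, a VQ-motif protein (0.54, 1.17 and 1.01 in 3x(m), 3x(p) and 4x), AT5G24890 (0.56, 1.13 and 0.82) and AT5G63130 (0.34, 1.00 and 1.33).

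IAGLU, which conjugates the auxin indole-3-acetate to glucose, had the smallest p of the single-gene falls of unequal size. It read 8.73, 8.69, 8.83 and 8.90 in diploids, 8.16 to 8.94 in 3x(m), 7.92 to 8.34 in 3x(p) and 7.96 to 8.13 in 4x. The maternal-excess triploids overlapped with the diploids and the other groups did not. The pooled difference was −0.53 ± 0.0998 (limma, adjusted p = 0.0143), and the group differences were −0.21, −0.64 and −0.74. The others were AT5G62210 (−0.75), AT1G48650 (−0.49), AT1G74250 (−0.37) and AT5G58900 (−0.30). Omission of 2x 1 ended each of these 5 calls, and between 3 and 6 of the 19 omissions did so for each.

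**Figure D4:**
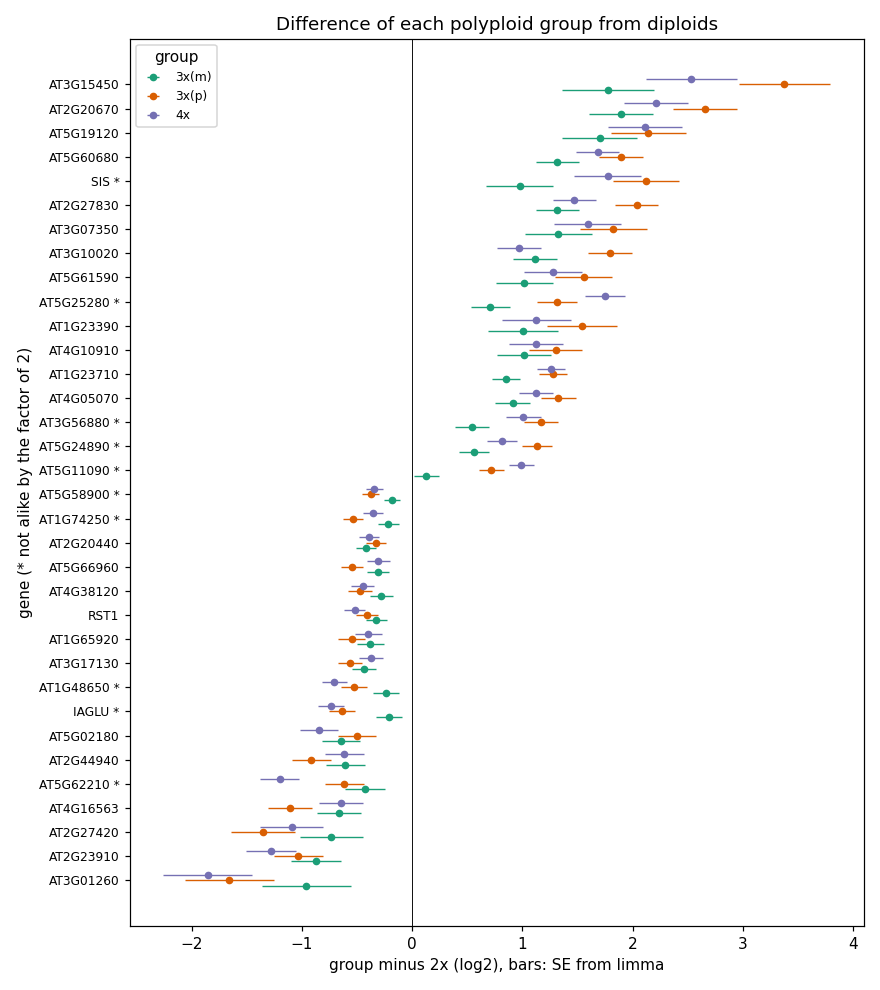
Difference of each polyploid group from diploids (log2, horizontal; bars are the SE from limma) for the named genes changed alike and for those marked with an asterisk, which were called but differed among groups by more than the limit. The 3x(m) point lies nearest to 0 for most genes, with 1.78 for AT3G15450 against 3.38 in 3x(p) as an example.

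Of the gene lists, the proteins with the domain DUF506 had the most calls. The list was chosen with earlier results of these data known, so its direction is not independent evidence. Over all probe sets 0.541% were called higher, 0.233% were called lower, 49.1% had a positive difference and 11.3% had an unadjusted p under 0.05. The counts of this and the following lists are set against these shares. Of 13 loci 6 had a single-gene probe set, all 6 had a positive difference (median 0.87), and 3 were called higher: AT2G20670, AT3G07350 and AT2G38820 (0.95 ± 0.171, limma, adjusted p = 0.0101). The list median by seedling ran from −0.25 to 0.27 in diploids, 0.32 to 0.84 in 3x(m), 0.64 to 1.31 in 3x(p) and 1.15 to 1.64 in 4x. This separation from diploids was partly built in, because 3 of the 6 measured members belong to the raised set. AT1G12030, another member, was at 6.58 ± 0.45 in diploids and 8.40 ± 0.14 in 4x but at 6.74 ± 0.53 and 7.00 ± 0.83 in the triploids, and was not called in the pooled comparison (0.80 ± 0.283, adjusted p = 0.265).

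On the list of genes induced by touch, handling and other rapid stress 4 of 15 loci were measured and 2 were called higher, with a list median of 1.29. They were AT5G61590, described above, and STZ, a zinc-finger repressor of stress responses. STZ read 5.13, 4.74, 4.39 and 4.35 in diploids and 4.68 over 5.87 to 7.58 in polyploids, and rose by 1.30 ± 0.29 (limma, adjusted p = 0.0407), a call that ended in 12 omissions. WRKY53, a senescence and defence transcription factor, differed by 1.47 ± 0.483 (adjusted p = 0.219), with 7.26 in seedling 3x(m) 4 and 7.86 in 3x(p) 5, and CML38, a calmodulin-like protein, by 0.01. The list median by seedling ran from −0.14 to 0.01 in diploids and from 0.31 to 2.19 in polyploids. Since 2 of its 4 measured members belong to the raised set, this separation was partly built in. The median seedling was at 1.18 in 3x(m), 1.39 in 3x(p) and 0.98 in 4x, against 0.56, 1.01 and 0.89 for the raised set. The part of the list in the raised set was not tested.

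The low-oxygen list had 8 of 19 loci measured, 2 of them called higher (AT3G10020 and AT1G05575), and a median of 0.43. The shift was largest in tetraploids, with group medians of 0.15 in 3x(m), 0.28 in 3x(p) and 0.90 in 4x. By seedling the list median ran from −0.17 to 0.33 in diploids and from −0.14 to 0.33 in 3x(m). It ran from −0.01 to 0.78 in 3x(p) and from 0.40 to 1.15 in 4x. Of the genes induced by darkness and sugar starvation 3 of 25 were measured, and AT3G15450 was the 1 called. Root and root hair markers had 0 calls in limma among 4 measured of 13, with a median of 0.46 and 1 with an unadjusted p under 0.05. XTH26, a xyloglucan-modifying enzyme of root hair walls, differed by 1.47 ± 0.439 (limma, adjusted p = 0.159) with 0.18 in 3x(m), 1.62 in 3x(p) and 2.62 in 4x. The list median by seedling ran from −0.35 to 0.28 in diploids and from −1.29, in 3x(m) 4, to 1.62 in polyploids. In RNA of whole seedlings, a different number of cells of a type and a different amount of RNA per cell cannot be told apart.

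Nuclear genes of photosynthesis had 0 calls among 5 measured of 31, with a median of 0.0544 and 0 with an unadjusted p under 0.05 in limma. Flavonoid and anthocyanin synthesis had 1 called fall among 6 measured of 18. UGT78D2, a flavonoid glucosyltransferase, fell by 0.55 ± 0.126 (limma, adjusted p = 0.0497), and its call ended in 14 omissions. Signs within the list differed: 4 of the 6 members lay above the diploids, for a list median of 0.138. An unadjusted p under 0.05 in limma was reached by 2 of the 6, UGT78D2 and UGT78D1 (−0.42 ± 0.127), both lower in polyploids. Auxin response and conjugation had 1 called fall, IAGLU, among 7 measured of 18. Its directions were mixed, with 3 of the 7 positive and a median of −0.087. An unadjusted p under 0.05 in limma was reached by 4 of the 7, against 11.3% of all probe sets. Besides IAGLU these were IAA29 (0.84 ± 0.309), WES1 (0.43 ± 0.163) and GH3.17 (−0.48 ± 0.186), which were not called. Over all probe sets 0.233% were called lower. Iron deficiency and storage (3 measured of 22) and cold and abscisic acid (4 of 13) had 0 calls in limma and 0 with an unadjusted p under 0.05. The mitotic list had AUR1 (0.28 ± 0.355) and AUR2 (0.32 ± 0.363) only, endoreduplication SIM (0.11 ± 0.25), DNA replication PRL (0.13 ± 0.207), the clock GI (−0.17 ± 0.11) and DNA methylation and silencing DME (−0.17 ± 0.105), with 0 calls in limma and 0 with an unadjusted p under 0.05. DNA damage, shade, seed storage and flowering genes had 0 measured loci.

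Transcripts encoded in the plastid were not called (0 of 69), but 67 of the 69 had a positive difference, against 49.1% of all probe sets, and their median was 0.294. Plastid genes are transcribed in long shared units, so they are not independent of each other; 21 had an unadjusted p under 0.05 in limma, against 11.3% of all probe sets. By seedling the median of the 69 was −0.44, 0.11, 0.50 and −0.10 in diploids 1 to 4 and ran from −0.01 to 0.58 in polyploids, so that diploid 3 lay above most polyploids. The mitochondrial genes measured (16) had 0 calls in limma, 0 with an unadjusted p under 0.05 and a median of 0.0237. Their median level was 3.80, against 9.41 for the plastid genes. It lay below 4.07, the limit of the filter on dim probe sets. Low signals are compressed by RMA, so for the dim genes among them the lack of calls cannot show that their transcripts were unchanged. By nuclear chromosome, the share of single-gene probe sets called was 0.637%, 0.727%, 0.692%, 0.612% and 0.798% for chromosomes 1 to 5.

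**Figure D5:**
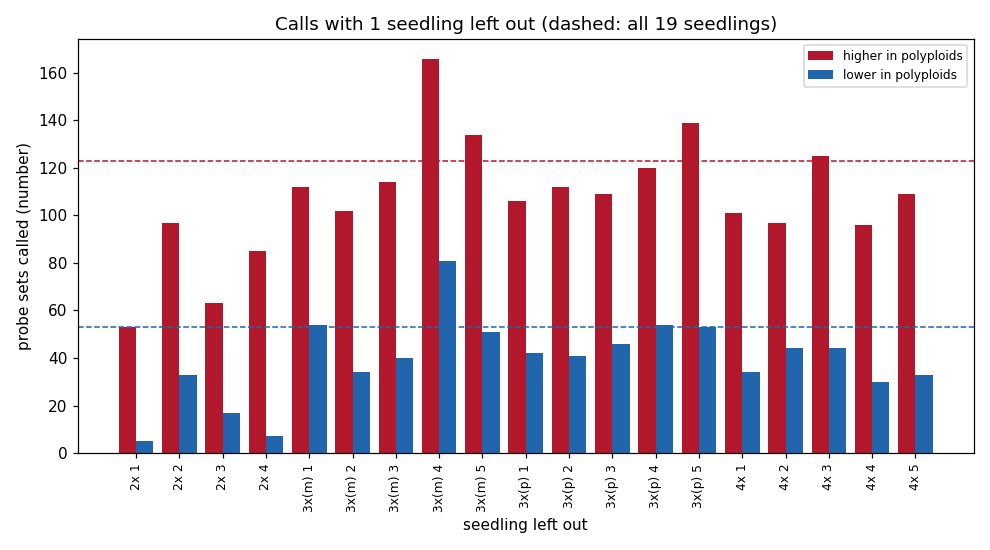
Number of probe sets called higher (red) and lower (blue) in polyploids (vertical) when the seedling named on the horizontal axis is left out; dashed lines mark the 123 and 53 calls with all 19 seedlings. Leaving out 2x 1 gives the lowest bars, 53 and 5, and leaving out 3x(m) 4 the highest, 166 and 81.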

How the data were processed

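RNA of 19 single seedlings was hybridised to 1 array each, per the labels' protocols after Trizol lysis, column extraction and biotin labelling with a 3' IVT kit. The authors deposited log2 values made with RMA, per the submitters' processing notes; RMA subtracts background, equalises the distributions of the arrays and combines the probes of a set, so that differences are relative to the whole transcriptome and low signals are compressed. Its version and a genome build were not given in the sources used here. For arrays, their number limits the precision, and p-values measure the spread between these seedlings.

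Of 22810 probe sets 64 controls were set aside. The platform annotation listed 14016, of which 13513 had 1 gene and 503 several; 8730 were unlisted and are given by ID. Symbols of 13436 were updated through a TAIR10.1 gene table. Plastid genes were taken by chromosome and mitochondrial genes by symbol.

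limma 3.58.1 in R 4.3.3 fitted 1 coefficient per group over 19 arrays with empirical Bayes moderation, and the contrast was (3x(m) + 3x(p) + 4x)/3 minus 2x. Benjamini-Hochberg adjustment ran over 22746 probe sets. An F-test over 3x(p) minus 3x(m) and 4x minus 3x(m) compared the polyploids. The fit was tested on simulated data. Plots were made with matplotlib 3.10.9 under Python 3.11.15.

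Named genes were the 12 largest changes per direction among single-gene probe sets changed alike, the 5 smallest p per direction among those not alike, the 5 smallest F-test p among called genes, at most 4 per list and, per direction, at most 3 probe sets without a gene. The comparison, the 19 lists and the rules were chosen with earlier results of these data known. A gene with several probe sets entered a list by the brightest. A search of promoters for motifs was not made, and no sequences are printed.

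Alternatives were array weights, the replicate number as a block, eBayes with its trend and robust options, a filter on the dimmest 30% of probe sets (mean below 4.07), renewed quantile normalization, the brightest probe set of each gene, a minimum fold of 1.5, polyploids as 1 group, omission of a group or a seedling, and 4 other definitions of alike.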

Additional observations from a re-analysis of the deposited data

Results flagged for a closer look

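In 87 named probe sets the 348 groups of 4 or 5 seedlings were searched for a seedling far from all others of its group, and 25 were found; chance flags about 1 in 20 groups. Seedling 3x(m) 4 accounted for 10 of them. It was low for AT5G62210 (8.02), AT1G74770 (262218_at, 4.87), SIM (5.25), IAA29 (4.28), COR47 (9.35) and COR15A (5.79), and high for AT1G74250 (6.62), CML38 (4.77), AUR2 (8.38) and AUR1 (8.66). AUR1 and AUR2, mitotic kinases, were also high in seedling 4x 5 (7.79 and 7.33), which had in addition the lowest tetraploid value of LHCB4.1 (12.6), a light-harvesting protein.

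Among the genes that fell, AT3G01260 was low in 3x(p) 3 (3.62), AT2G23910 in 4x 4 (3.49) and AT5G02180 in 3x(p) 5 (5.38), and WRKY53 was high in 3x(p) 5 (7.86). AT2G38820, a DUF506 gene that rose, was low in diploid 2 (7.29). The clock gene GI was low in 3x(p) 4 (6.70), SIM in 3x(p) 1 (5.85) and rps4 in 4x 2 (11.7). High values were those of AT1G19530 in 3x(p) 1 (5.06), UF3GT in 4x 2 (6.59), rbcL in diploid 3 (10.5) and cox1 in 3x(m) 2 (7.32).

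The probe sets called against diploids that also differed among the 3 polyploid groups were found by the F-test of limma, with an adjusted p of 2.08e-06 for 251436_at, 0.000975 for 260266_at, 0.00394 for AT5G11090, 0.00649 for 245668_at, 0.0141 for 252367_at, 0.0310 for 266720_s_at and 0.0455 for AT1G05575. The probe set 251436_at differed from diploids by −0.18 in 3x(m), −0.63 in 3x(p) and −1.37 in 4x, 260266_at by 0.46, 1.07 and 1.54, and 252367_at by 1.08, 2.78 and 3.22.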

How the results depend on the processing

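With 4 diploid seedlings the counts depended on each of them. Leaving out 1 seedling gave 58 to 247 calls, 53 to 166 higher and 5 to 81 lower. It gave 32 to 137 alike (29 to 99 up, 3 to 40 down) and 6 to 20 differing among polyploids. Without overlap were 103 to 252, an alternative chosen after seeing the data. That last count cannot fall when a seedling is left out. None of the 176 called probe sets reversed its sign (0) under any of the fits, and for single named genes 2249 values kept their side of the threshold, 253 lost the call and 10 gained it. Array weights, which favour some arrays, gave 529 calls (266 higher, 263 lower), 279 alike (129 up, 150 down) and 27 in the F-test, so the share of higher calls depended on the weighting. With 1 probe set per gene, and so fewer tested, there were 86 (63 and 23), 54 alike (41 and 13) and 3. Polyploids as 1 group gave 61 (50 and 11). Without the group 3x(m) there were 443 (256 and 187), without 3x(p) 69 (55 and 14) and without 4x 62 (60 and 2). A fold of at least 1.5 left 109, 18 of them lower, and 60 alike, 10 of them lower. A ratio of at least 2/3 (66.7%) left 37 alike (26 and 11), the call in each of 3 comparisons 8 (8 and 0), the largest of the 3 p-values adjusted over all probe sets 8 (8 and 0), and separation of all values 66, 17 of them lower. eBayes with trend and robust gave 154, the filter on dim probe sets 191 (15922 tested) and a further quantile normalization 189. Of 27 same-numbered pairs 11 correlated above 0.1 (range −0.375 to 0.435), and 6 of 19 seedlings correlated best with their own number. Same-numbered seedlings had the higher mean correlation between 2x and 3x(m) (0.103 against −0.029 for other pairs) and between 2x and 4x (0.131 against −0.032). The same held between 3x(m) and 4x (0.191 against −0.048) and, less, between 3x(p) and 4x (0.044 against −0.012). The order was reversed between 3x(p) and 2x (−0.168 against 0.040) and between 3x(p) and 3x(m) (−0.010 against 0.012). Whether the number marks a batch was not tested. With the replicate number as a block the count was 171 (131 and 40), of which 137 were among the 176, 114 were alike and 15 differed among polyploids. Where a cause is not given by the setting itself, the cause was not tested. Signals near the background of RMA limit what dim probe sets can show.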

Other observations

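Of the gene families grouped by a shared symbol (at least 8 measured members each, defined with the values known), few members were called. TET8, a tetraspanin of the plasma membrane, rose by 0.78 ± 0.127 (limma, adjusted p = 0.00409) without overlap of the groups, as the 1 of 15 tetraspanins called. UBC19, a ubiquitin-conjugating enzyme of the cell cycle, rose by 0.40 ± 0.088 (adjusted p = 0.038), the 1 of 12 in its family. Of 47 glycosyltransferases with a symbol starting with UGT 15 had a positive difference, and 1, UGT78D2, was called lower. IAGLU, which fell as described above, is not counted there because of its symbol. Over all probe sets 0.541% were called higher, 0.233% were called lower and 49.1% had a positive difference.

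The 8 genes of autophagy named ATG, 7 of them with a positive difference, had a median of 0.239 and 0 calls in limma, with 3 at an unadjusted p under 0.05. Over all probe sets 49.1% had a positive difference and 11.3% such a p. The nearest was ATG8C (0.31 ± 0.0759, adjusted p = 0.0648). Their median by seedling was at most 0.05 in diploids and ran from −0.14, in 3x(m) 4, to 0.57 in polyploids. Of the 12 ubiquitin-specific proteases (UBP) 2 were above 0, the median was −0.125, and there were 0 calls in limma and 2 at an unadjusted p under 0.05. The TBL family of wall polysaccharide acetylation had 6 of 22 positive and a median of −0.13, with 0 calls and 3 at an unadjusted p under 0.05. The members of a family are not independent of each other, and the median over all 22746 probe sets was −0.00298.

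QKY, a membrane protein of tissue organisation, fell by 0.32 ± 0.0682 (limma, adjusted p = 0.0346) with all polyploids below all diploids. AT5G47390, a MYB-related transcription factor (KUA1) that promotes leaf cell expansion, rose by 0.59 ± 0.123 (adjusted p = 0.0267), with 0.37 in 3x(m), 0.72 in 3x(p) and 0.70 in 4x. Both genes were chosen after their values were seen.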
